A study of Mus musculus with 30 samples.

Results

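The growth of Colon 26 tumors from about 100 mm3 to about 400 mm3 was examined by RNA-seq in 8 tumors. Colon 26 is a colon carcinoma line of BALB/c mice, and the cells were implanted under the skin of female BALB/c mice, in the right flank. The members were taken by the tumor size in the labels, 4 tumors labelled 100 mm3 and 4 labelled 400 mm3, which are 8 of the 30 libraries of the series. Beside the size, the labels carry the code A1 for the 100 mm3 tumors and D5 for the 400 mm3 tumors. The labels do not explain these codes, and whatever they stand for cannot be told apart from size. The other libraries hold Colon 26 tumors of 800 mm3, Colon 26 cells in culture, and tumors and cultures of CT-26, another BALB/c colon carcinoma line. The measured volumes were 119.18, 124.88, 121.78 and 102.9 mm3 in 100 mm3 tumors 1 to 4, and 402.1, 405.49, 401.52 and 466.73 mm3 in 400 mm3 tumors 1 to 4. The tumor numbers follow the order of deposition and pair nothing. A protocol shared by all samples describes dosing with antibodies to CTLA-4, PD-1 and PD-L1, but the sample labels name no antibody for any of the 8 tumors. The labels of these 8 libraries give neither the age of the mice nor the day or hour of harvest, so that tumor size cannot be told apart from time of harvest. The labels do not say that each library came from a separate mouse, and p-values therefore measure the spread between these libraries.

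A subcutaneous tumor is a mixture. Carcinoma cells grow among fibroblasts, vessels, macrophages and lymphocytes, and the flank mass lies on a thin sheet of striated muscle with fat beside it, so that an excised piece can carry some of both. In bulk RNA, fewer cells of a type and less RNA per cell cannot be told apart. The 8 libraries held 23597116 to 35677338 estimated counts, of which 1.305% to 1.586% were mitochondrial. Levels are given below as CPM, counts per 1000000 of a library's total after that total was multiplied by a scaling factor (TMM). They compare a gene between tumors but not with another gene. The colon label was checked first. Cdx2, an intestinal transcription factor, lay at 3.79 to 5.14 CPM and Krt20, an intestinal keratin, at 2.42 to 21.1 CPM in the 8 tumors. The epithelial adhesion gene Cdh1 lay at 0.948 to 4.03 CPM, and Epcam, Vil1, Krt8 and Krt18, which mark simple epithelium, lay between 0 and 0.289 CPM. In cultured Colon 26 cells Cdx2 lay at 5.7 to 6.2 CPM, Krt20 at 5.22 to 5.68 CPM and Cdh1 at 0 to 0.0481 CPM. Which cells of the tumors held the Cdh1 RNA was not tested. The label thus rests on few of its usual epithelial markers.

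Before any comparison of sizes, 400 mm3 tumor 1 stood apart from the other tumors of its group. Its Spearman correlation with them across genes was 0.968 to 0.975, while the other pairs of 400 mm3 tumors reached 0.993 to 0.994 and the pairs of 100 mm3 tumors 0.986 to 0.995. The difference was plain in skeletal muscle genes. The summed level of 32 muscle genes was 5149 CPM in 400 mm3 tumor 1 and 81.5, 92.6 and 67.1 CPM in tumors 2, 3 and 4. In the 100 mm3 tumors the same sum was 482, 2582, 337 and 582 CPM. All 4 small tumors and 1 large tumor therefore stood above the 3 remaining large tumors, and the 800 mm3 tumors, at 69.2 to 80.6 CPM, lay near those 3. Cultured Colon 26 cells summed to 162 to 169 CPM, of which the glycolytic enzyme gene Eno3 made up 148 CPM on average, so that this list has a floor in cells grown without muscle.

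The 5 defining muscle genes have almost no such floor. Their sum was 0.626 to 0.83 CPM in culture, 1.36 to 1.76 CPM in the 800 mm3 tumors, 194, 1281, 115 and 243 CPM in the 100 mm3 tumors, and 2483, 3.87, 5.85 and 1.37 CPM in the 400 mm3 tumors. Acta1, the actin of striated muscle, was counted at 54.3, 369, 55.1 and 80.3 CPM in the 100 mm3 tumors and at 884, 1.52, 3.14 and 0.361 CPM in the 400 mm3 tumors. Myh4, the myosin heavy chain of the fastest fibers, was at 65.1, 455, 23.4 and 77 CPM against 767, 0.493, 0.185 and 0.181 CPM. Both genes were higher in 400 mm3 tumor 1 than in any small tumor and lower in the 3 other large tumors than in any small tumor. Ckm, the muscle creatine kinase, Mylpf, a fast regulatory light chain, and Tnnt3, a fast troponin T, had the same order. Of the 32 muscle genes, 29 to 32 reached 1 CPM in each 100 mm3 tumor, 32 did so in 400 mm3 tumor 1, and 6, 7 and 3 did so in tumors 2, 3 and 4.

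The muscle RNA was of the fast kind in each tumor that carried it. On the FPKM scale, which corrects for gene length, Myh4 made up 72.6% of the summed Myh1, Myh2, Myh4 and Myh7 level in 400 mm3 tumor 1, with 14.2% for Myh1, 9.85% for Myh2 and 3.36% for the slow myosin Myh7. In 100 mm3 tumor 2, the muscle-richest small tumor, Myh4 took 93.4% and Myh7 0.00558%. The other 3 small tumors had Myh4 shares of 71.9%, 55.7% and 71.2% and Myh7 shares of 0.105% to 0.607%. Fat genes were also highest in 400 mm3 tumor 1. The summed level of 15 adipocyte genes was 194 CPM there, 55.2 to 69.4 CPM in the other large tumors and 91.4 to 122 CPM in the small ones. Car3, a carbonic anhydrase abundant in fat and in slow muscle, was at 17.7, 8.72, 7.15 and 22.7 CPM in the 100 mm3 tumors and at 73.2, 0.152, 0.462 and 0.0361 CPM in the 400 mm3 tumors. The adipokine gene Adipoq, at 3.06 CPM in 400 mm3 tumor 1 and 0 to 0.338 CPM in the other large tumors, and the fat droplet gene Cidec, at 4.04 against 0 to 0.215 CPM, had the same order at low levels.

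**Figure D1:**
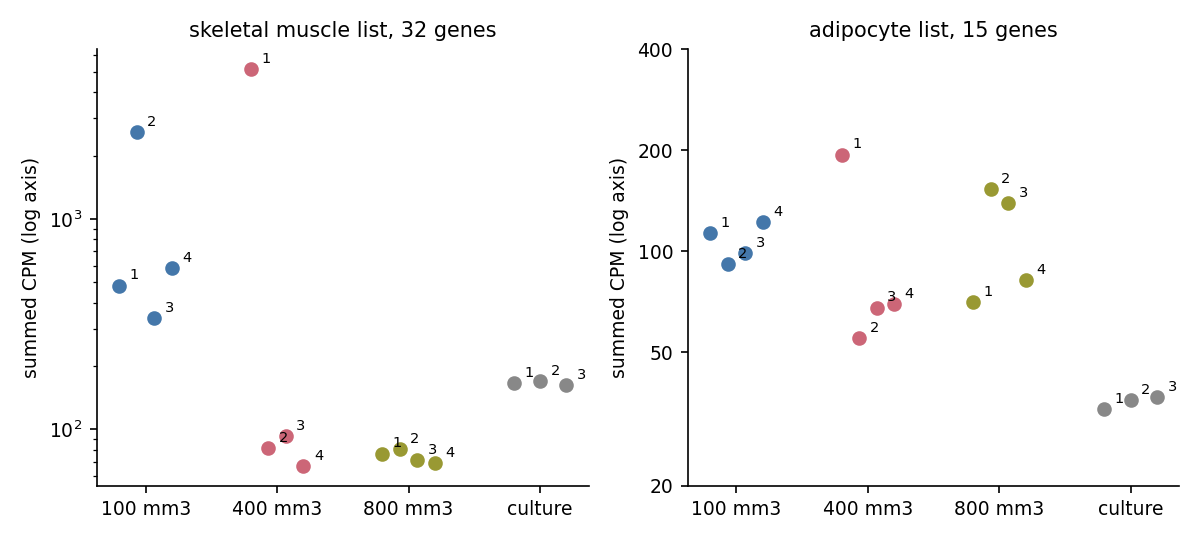
Summed CPM (log axis) of the 32 skeletal muscle genes (left) and the 15 adipocyte genes (right) in each Colon 26 library, with the replicate number beside each point. For muscle, 400 mm3 tumor 1 lies at 5149 CPM and the 3 other 400 mm3 tumors at 67.1 to 92.6 CPM, below all 4 of the 100 mm3 tumors.

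With all 8 tumors in the fit, few genes separated the sizes. The edgeR quasi-likelihood test was run on 15241 genes, and a gene was called at a Benjamini-Hochberg adjusted p of at most 0.1 with at least a 2-fold change. Only 2 genes were called, Per1 and Spsb1, which is 0.0131% of the genes tested, and both fell from 100 to 400 mm3. DESeq2 under the same thresholds called 12 genes higher (0.0441% of 27225) and 30 lower (0.11%), Per1 and Spsb1 among them. At an unadjusted p under 0.05, edgeR counted 1109 genes higher (7.28%) and 820 lower (5.38%). The median log2 fold change of all genes tested was 0.01.

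Per1, a repressor of the circadian clock and an early target of the glucocorticoid receptor (ENSMUSG00000020893; chr11:69095217-69109960, plus strand, GRCm38), was at 203, 181, 170 and 149 CPM in the 100 mm3 tumors and at 52.8, 34.8, 45.4 and 63.4 CPM in the 400 mm3 tumors. Every small tumor lay above every large one, and 400 mm3 tumor 1 lay within the range of the other large tumors. The fall was 3.59-fold (log2 fold change −1.84, SE 0.18, edgeR adjusted p = 0.041, n = 4 and 4). The 800 mm3 tumors held 55.1 to 67.8 CPM and the cultured cells 27.7 to 31.8 CPM.

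Spsb1, which encodes an adaptor that directs proteins, among them inducible nitric oxide synthase, to ubiquitin ligases (ENSMUSG00000039911; chr4:149896283-149955043, minus strand, GRCm38), was at 68.2, 50.5, 52.1 and 46 CPM in the small tumors and at 23.7, 21.6, 25.1 and 25.4 CPM in the large ones. The groups did not overlap, and the 4 large tumors lay close together. The fall was 2.27-fold (log2 fold change −1.18, SE 0.12, edgeR adjusted p = 0.041, n = 4 and 4). The level was 23.5 to 32.4 CPM at 800 mm3 and 8.74 to 9.71 CPM in culture. The gene 3110039I08Rik passed the adjusted p but not the 2-fold limit, with 275, 266, 284 and 275 CPM in the small tumors and 352, 418, 408 and 408 CPM in the large ones (log2 fold change 0.52, SE 0.06, edgeR adjusted p = 0.069).

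The number of genes called depended on which tumor was left out. It was 391 without 400 mm3 tumor 1, of which 36 were higher (0.235% of 15330) and 355 lower (2.32%). It was 9 without 100 mm3 tumor 4, and 0 or 1 without any other single tumor. Without 100 mm3 tumor 2 or 3, or 400 mm3 tumor 3, neither Per1 nor Spsb1 was called, and 1308, 1173 and 1371 genes had an unadjusted p under 0.05 in edgeR. Without 100 mm3 tumor 1, or 400 mm3 tumor 2 or 4, 1 gene was called. The adjusted p of both genes ranged up to 0.27 over these 8 fits, while the log2 fold change stayed between −2.0 and −1.72 for Per1 and between −1.25 and −1.06 for Spsb1. With both muscle-rich tumors left out, 100 mm3 tumor 2 and 400 mm3 tumor 1, 306 genes were called, 35 higher and 271 lower.

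**Figure D2:**
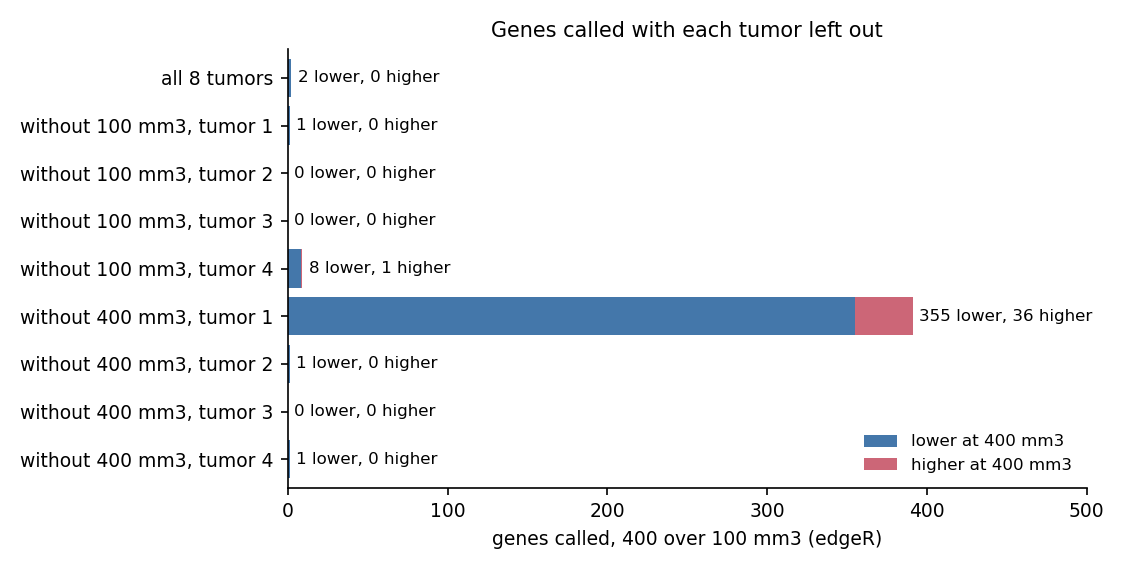
Number of genes called by edgeR in 400 over 100 mm3 with all 8 tumors and with each tumor left out in turn, split by direction. The bar without 400 mm3 tumor 1 reaches 391 genes, and every other bar holds 9 or fewer.

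The muscle genes are the clearest case of this dependence. In the fit of 8 tumors, none of the 32 passed an unadjusted p of 0.05, and their median log2 fold change was 0.39. Without 400 mm3 tumor 1, all 32 passed the adjusted p as lower and 31 were called, with a median of −5.90. Over all genes of that fit, 2125 (13.9%) passed the adjusted p as higher and 2261 (14.7%) as lower. Myh4 then had a log2 fold change of −9.12 (SE 1.59, edgeR adjusted p = 0.011), and Acta1 −6.35 (SE 1.05, adjusted p = 0.0099). Of 8 adipocyte genes tested, 6 were called lower without that tumor (Adipoq, Plin1, Cidec, Cfd, Fabp4 and Car3), with a median of −2.73 beside a median over all genes of −0.01. With all 8 tumors the adipocyte median was already below 0, at −0.29. Because tumor 1 stood out by these same muscle and fat genes, their p-values without it are no test of a fall with size. For the other genes below, p-values without tumor 1 show how far a result depends on that tumor and are no separate support. For the 5 defining muscle genes the log2 fold change of the 8 tumors was above 0 in edgeR and below 0 in limma on log2 FPKM, with 0.1 or 1 added.

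The other genes called without 400 mm3 tumor 1 did not all share this order. Of the 355 lower genes, 31 were in the muscle list and 65 in any of the lists examined. The level in 400 mm3 tumor 1 was above the range of the small tumors for 207 of the 355, within it for 94 and below it for 54. For the 36 higher genes it was above the range for 15, within it for 16 and below it for 5. Among the 355 and the 36, 249 and 25 were also called with both muscle-rich tumors left out. Groups of 4 and 4 that did not overlap at all were seen for 49 of the 355 lower genes and 12 of the 36 higher ones. Over all genes tested, 614 were higher without overlap (4.03%) and 445 lower without overlap (2.92%).

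Per1 belongs to 2 groups of genes, those of the circadian clock and those that respond to glucocorticoids. In the clock, the CLOCK and BMAL1 proteins (BMAL1 is encoded by Arntl) switch on the Per and Cry repressors, the Nr1d repressors and the output factors Dbp and Tef, and the Nr1d proteins in turn hold Arntl down. Clock genes therefore swing over the day in most tissues, with Arntl opposite to Per and Dbp. Glucocorticoids, whose blood level follows the same daily rhythm and rises with stress, also switch on Per1, Tsc22d3, Sgk1 and Fkbp5 through their receptor. The list of 19 clock genes and the list of 12 glucocorticoid-responsive genes were chosen after the values were seen, so their counts describe and support nothing. Per1 is in both.

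Of 17 clock genes tested, 7 were lower and 2 higher at an unadjusted p under 0.05, and 6 were lower and 1 higher without overlap between the groups. Over all genes the shares were 5.38% lower and 7.28% higher at that p, and 2.92% lower and 4.03% higher without overlap. The median log2 fold change of the clock genes was −0.24 beside 0.01 for all genes. The summed clock level was 1080, 881, 899 and 932 CPM in the small tumors and 578, 732, 772 and 785 CPM in the large ones. The 2 ranges did not overlap, and 400 mm3 tumor 1 was the lowest.

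The output factor Dbp was at 69.4, 35.3, 31.1 and 37.5 CPM in the small tumors and 13.5, 7.32, 14.1 and 16.3 CPM in the large ones. The groups did not overlap, but Dbp did not pass in the 8 tumors (log2 fold change −1.76, SE 0.31, edgeR adjusted p = 0.15), while DESeq2 called it (adjusted p = 6.1e-07). Tef, a factor of the same family, stood at 121, 85.8, 80.1 and 88.9 CPM against 52, 39.4, 54.2 and 62.4 CPM (log2 fold change −0.86, SE 0.17, adjusted p = 0.17). Per2 stood at 27, 15.8, 13.4 and 15.1 CPM against 4.68, 6.94, 11.2 and 9.97 CPM (−1.13, SE 0.31, adjusted p = 0.26). For both, every large tumor lay under every small one, and neither passed in edgeR, while DESeq2 called Per2 (adjusted p = 0.014).

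Per3, with 22.2 to 35.8 CPM against 12.8 to 18.7 CPM, and the repressor Nr1d2, with 114 to 160 CPM against 85.4 to 114 CPM, showed the same order, the latter by a margin lost in rounding. The related repressor Nr1d1 overlapped, with 62.5 to 84.5 CPM against 50.3 to 66.9 CPM (log2 fold change −0.38, SE 0.12, adjusted p = 0.30). Cry1 and Cry2, the partners of the Per proteins, also overlapped, with log2 fold changes of −0.24 and −0.18. Arntl ran the other way, with 14.5, 24.2, 23.9 and 22.1 CPM in the small tumors and 24.3, 63.6, 49.7 and 39.7 CPM in the large ones. Every large tumor lay above every small one, with 400 mm3 tumor 1 only just so. The log2 fold change of Arntl was 1.06 (SE 0.28, edgeR adjusted p = 0.25, DESeq2 adjusted p = 0.0089) and without 400 mm3 tumor 1 it was 1.25 (SE 0.20, adjusted p = 0.0097). Its partner Clock stood at 80.1 to 87.7 CPM against 80.6 to 112 CPM (log2 fold change 0.23, SE 0.10, adjusted p = 0.39).

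Promoters of 3 of these genes are shown because they hold the short elements through which clock factors act, the E-box CACGTG bound by CLOCK and BMAL1 and the element TAGGTCA bound by ROR and Nr1d proteins. The windows run from 250 bases before to 50 bases after a gene's start and are taken from RefSeq on GRCm38.p6, 5′ to 3′ on the gene's strand, with the element in capitals. Each of the 3 genes has 2 starts in that table and 1 is shown. Per1 is at chr11:69098699-69098998, Tef at chr15:81802423-81802722 and Arntl at chr7:113207261-113207560, all on the plus strand. The first base of the element lies at −166 in Per1, −127 in Tef and 30 in Arntl, relative to the start.
Per1: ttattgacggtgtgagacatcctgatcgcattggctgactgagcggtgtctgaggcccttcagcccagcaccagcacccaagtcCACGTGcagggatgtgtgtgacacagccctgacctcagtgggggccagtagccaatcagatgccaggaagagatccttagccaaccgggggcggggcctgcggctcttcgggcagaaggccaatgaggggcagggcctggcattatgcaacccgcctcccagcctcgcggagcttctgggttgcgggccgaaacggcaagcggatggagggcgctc
Tef: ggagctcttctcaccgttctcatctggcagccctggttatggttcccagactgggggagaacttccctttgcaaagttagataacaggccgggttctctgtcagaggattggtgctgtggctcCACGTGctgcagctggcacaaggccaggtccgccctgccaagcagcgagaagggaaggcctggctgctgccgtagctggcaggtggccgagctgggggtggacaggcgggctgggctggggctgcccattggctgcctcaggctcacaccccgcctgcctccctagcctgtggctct
Arntl: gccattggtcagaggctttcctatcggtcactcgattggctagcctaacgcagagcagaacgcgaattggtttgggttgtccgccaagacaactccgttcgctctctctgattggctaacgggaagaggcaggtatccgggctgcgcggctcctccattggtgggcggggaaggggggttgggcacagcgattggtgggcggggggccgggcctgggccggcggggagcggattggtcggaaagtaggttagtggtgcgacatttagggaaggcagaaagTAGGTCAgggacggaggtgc
Both strands were searched, and the E-box, being its own reverse complement, reads alike on both. Of 32851 promoters in the table, 2349 (7.15%) held the E-box and 856 (2.61%) held TAGGTCA. Of 21 promoters of 16 clock genes, 6 held the E-box, from 5 genes (Bhlhe41, Ciart, Cry1, Per1 and Tef), and 2 held TAGGTCA (Arntl and Nfil3). These matches describe the windows and show no binding.

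Of the glucocorticoid-responsive genes, 11 were tested, 8 were lower at an unadjusted p under 0.05, none was higher, and 5 were lower without overlap, beside 5.38% lower at that p and 2.92% lower without overlap over all genes. Tsc22d3, which encodes the anti-inflammatory leucine zipper protein GILZ, was at 519, 350, 333 and 215 CPM in the small tumors and 84.5, 91.1, 112 and 174 CPM in the large ones (log2 fold change −1.62, SE 0.30, edgeR adjusted p = 0.17). Sgk1, a kinase that regulates ion transport and survival, was at 336, 276, 278 and 159 CPM against 84.1, 84, 92.6 and 116 CPM (−1.48, SE 0.22, adjusted p = 0.11). Fkbp5, a co-chaperone of the glucocorticoid receptor, was at 220, 154, 162 and 134 CPM against 95.5, 108, 97.4 and 130 CPM (−0.64, SE 0.16, adjusted p = 0.23). In all 3 the groups did not overlap, 100 mm3 tumor 1 was the highest, 100 mm3 tumor 4 the lowest small tumor and 400 mm3 tumor 4 the highest large one. DESeq2 called Tsc22d3 and Sgk1 (adjusted p = 0.0017 and 9.5e-10). The part of the hour of harvest or of handling in these levels was not tested.

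**Figure D3:**
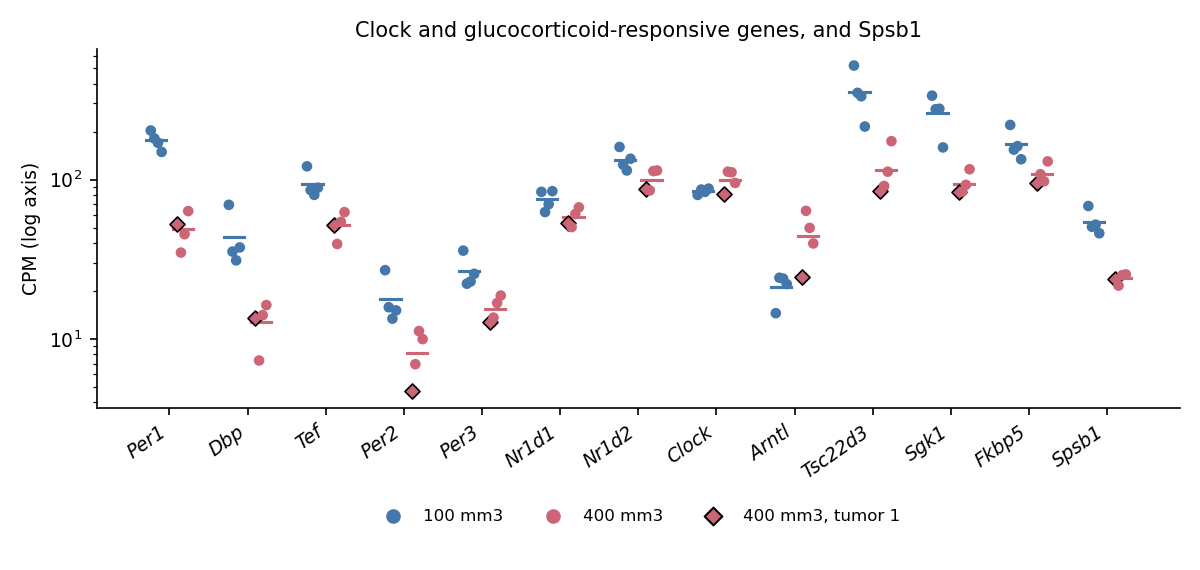
CPM (log axis) of clock genes, glucocorticoid-responsive genes and Spsb1 in the 4 tumors of 100 mm3 and the 4 of 400 mm3, with a line at each group's mean and a diamond for 400 mm3 tumor 1. For Per1 the small tumors lie at 149 to 203 CPM and the large ones at 34.8 to 63.4 CPM, and Arntl lies higher in the large tumors.

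Several other genes had groups that did not overlap but missed the adjusted p of edgeR in the 8 tumors. They were picked from those with the smallest p after their values were seen. Bcl2l1, which encodes the survival protein Bcl-xL, was at 231, 211, 222 and 183 CPM in the small tumors and 136, 92.4, 99.4 and 106 CPM in the large ones (log2 fold change −0.97, SE 0.13, edgeR adjusted p = 0.11). Ccn2, a matrix protein gene driven by TGF-beta and YAP, was at 128, 110, 85.3 and 72.7 CPM against 39.8, 33.1, 51.4 and 41.3 CPM (−1.26, SE 0.19, adjusted p = 0.11). In culture Ccn2 was at 1.44 to 1.52 CPM. Tent5b, a poly(A) polymerase gene, was at 5.9 to 14.6 CPM against 2.74 to 3.18 CPM (−1.86, SE 0.26, adjusted p = 0.11), and Arl4d, a small GTPase gene, at 1.65 to 7.27 CPM against 0.493 to 1.08 CPM (−2.36, SE 0.45, adjusted p = 0.17). The matrix protease gene Mmp19 lay at 37.9 to 51.8 CPM against 18.2 to 27.9 CPM (−0.88, SE 0.16, adjusted p = 0.16). In DESeq2 on the same 8 tumors, Bcl2l1, Ccn2, Tent5b, Arl4d and Mmp19 all passed. Their DESeq2 adjusted p were 5.9e-11, 3.4e-08, 1.1e-08, 7.1e-05 and 3e-05, and Ccn2, Tent5b and Arl4d were called.

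Some genes picked in the same way were higher in every large tumor, and none of them passed the adjusted p of edgeR in the 8 tumors. In DESeq2 on the same tumors Hbegf, Ereg, Egr1, Bdnf and Ptgs2 passed below the 2-fold limit. Their DESeq2 adjusted p were 4.8e-07, 0.00013, 2.8e-06, 4.7e-06 and 2e-05. Hbegf, a ligand of the EGF receptor, was at 74.4, 84.8, 97.6 and 110 CPM in the small tumors and at 188, 148, 163 and 149 CPM in the large ones (log2 fold change 0.82, SE 0.13, edgeR adjusted p = 0.12). Ereg, another ligand of that receptor, lay at 93.3 to 108 CPM against 123 to 152 CPM (0.43, SE 0.07, adjusted p = 0.15). Egr1, a transcription factor induced by growth signals, was at 79.6, 74.4, 92.7 and 112 CPM against 142, 187, 148 and 186 CPM (0.88, SE 0.14, adjusted p = 0.14). The neurotrophin gene Bdnf lay at 31.5 to 43.2 CPM against 50.7 to 76.2 CPM (0.85, SE 0.14, adjusted p = 0.13), and Ptgs2, the inducible cyclooxygenase, at 52.5 to 77.3 CPM against 98.4 to 127 CPM (0.73, SE 0.12, adjusted p = 0.15). Ptgs2 was far higher in culture, at 958 to 997 CPM.

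The nuclear RNA Malat1 lay at 516 to 562 CPM against 741 to 1133 CPM (0.86, SE 0.12, adjusted p = 0.11), and the secreted chaperone gene Clu at 31.6 to 34.8 CPM against 43.2 to 53.4 CPM (0.53, SE 0.07, adjusted p = 0.11). Without 400 mm3 tumor 1, Hbegf, Ereg, Egr1, Bdnf, Ptgs2, Malat1 and Clu each passed the adjusted p in edgeR, at 0.0012 for Malat1 and 0.0065 for Clu, and none reached the 2-fold limit. Of 20 immediate early and stress genes, 4 were higher and 2 lower at an unadjusted p under 0.05, beside 7.28% and 5.38% of all genes, with a median log2 fold change of 0.09.

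Granzymes, the proteases of cytotoxic granules, divided into 2 patterns. Gzmd was at 1.81, 6.41, 2.88 and 3.55 CPM in the small tumors and at 6.94, 10.8, 22.3 and 33.2 CPM in the large ones. Gzme was at 1, 2.03, 0.749 and 1.44 CPM against 2.93, 4.13, 7.26 and 11.4 CPM. Gzmc was at 3.39 to 6.07 CPM against 6.44 to 15 CPM. For these 3 the groups did not overlap, and for Gzmf and Gzmg they overlapped through 100 mm3 tumor 2. The log2 fold changes were 1.17 for Gzmc, 2.31 for Gzmd, 2.28 for Gzme, 2.15 for Gzmf and 2.18 for Gzmg, with edgeR adjusted p of 0.17 to 0.28 in the 8 tumors. DESeq2 called all 5 (adjusted p = 0.00013 for Gzme), and edgeR without 400 mm3 tumor 1 called Gzmd, Gzme, Gzmf and Gzmg, at log2 fold changes of 2.56, 2.50, 2.39 and 2.47 and adjusted p of 0.012, 0.0098, 0.027 and 0.02. These genes are near-identical neighbors, and how the counting split reads among them is uncertain. Each was at 0 CPM in culture.

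Other genes of cytotoxic granules overlapped between the sizes. Gzmb, the granzyme most used by cytotoxic T and NK cells, was at 2.78, 15.9, 11.9 and 7.1 CPM in the small tumors and 10.9, 6.37, 8 and 11.2 CPM in the large ones (log2 fold change −0.05, SE 0.45, edgeR adjusted p = 0.96). Prf1, which encodes the pore protein perforin, lay at 1.71 to 9.6 CPM against 6.1 to 12.1 CPM (0.68, SE 0.49, adjusted p = 0.56), and Nkg7, a granule membrane gene, at 0.808 to 7.09 CPM against 1.36 to 4.38 CPM (−0.30, SE 0.62, adjusted p = 0.85). The T cell receptor chain gene Cd3e lay at 0.549 to 3.49 CPM against 0.455 to 1.54 CPM. Of 19 cytotoxic and NK genes tested, 5 were higher (the granzymes above) and 2 lower at an unadjusted p under 0.05, and the median log2 fold change was −0.11. In the T cell list the counts were 0 and 2 of 18, with a median of −0.56. Over all genes 7.28% were higher and 5.38% lower at that p. Fcrl6, a receptor gene of cytotoxic lymphocytes, was called by DESeq2 (log2 fold change in edgeR 2.41, SE 0.68, adjusted p = 0.27), with 0.0646 to 0.44 CPM against 0.37 to 2.38 CPM.

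Several macrophage genes were lower in 400 mm3 tumors 2, 3 and 4 than in tumor 1. The receptor gene Csf1r was at 307, 343, 356 and 340 CPM in the small tumors and at 351, 210, 253 and 263 CPM in the large ones. Folr2, a folate receptor of tissue-resident macrophages, was at 40.1, 23.3, 33.8 and 32 CPM against 42.8, 9.4, 12.5 and 17.2 CPM. Cd163, a hemoglobin scavenger receptor of the same cells, was at 25, 7.75, 11.7 and 19 CPM against 28.9, 1.71, 0.831 and 9.32 CPM. For Csf1r and Folr2 the 3 other large tumors lay below every small tumor while tumor 1 was among or above them. Without it, Folr2 and Cd163 fell (log2 fold change −1.32, SE 0.23, edgeR adjusted p = 0.011, and −2.03, SE 0.75, adjusted p = 0.096), as did Mrc1 and Apoe. Csf1r was lower by less than the 2-fold limit (−0.49, SE 0.08, adjusted p = 0.011). For Csf1r, Folr2 and Cd163 tumor 1 was the highest large tumor, so their p-values without it are no separate support.

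In the macrophage list of 25 tested genes, 2 were higher and 6 lower at an unadjusted p under 0.05 in the 8 tumors (median −0.43), beside 7.28% and 5.38% of all genes. Without 400 mm3 tumor 1, 2 genes passed the adjusted p as higher and 15 as lower, of which 4 were called (median −0.74), beside 13.9% and 14.7% of all genes that passed in that fit. The surface marker Adgre1, known as F4/80, did not set tumor 1 as far apart, with 58.6, 76.1, 93.2 and 71.1 CPM in the small tumors and 59, 43.7, 48.7 and 42.9 CPM in the large ones (log2 fold change −0.63, SE 0.15, adjusted p = 0.23 with all 8). Cd68, a lysosomal protein of macrophages, lay at 100 to 124 CPM against 63.9 to 97.1 CPM with no overlap (−0.43, SE 0.13, adjusted p = 0.28).

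For the macrophage chemokines Ccl8 and Ccl6, large tumors 2, 3 and 4 lay below every small tumor, and tumor 1 lay within the small range for Ccl8 and above it for Ccl6. Ccl8 was at 69.6, 71.1, 85.1 and 71.1 CPM in the small tumors and 74.5, 5.95, 11.5 and 44.6 CPM in the large ones, and Ccl6 at 135, 74, 91.1 and 114 CPM against 170, 8.95, 34.5 and 52 CPM. Neither passed in the 8 tumors (log2 fold change −1.12, SE 0.65, edgeR adjusted p = 0.48, and −0.64, SE 0.70, adjusted p = 0.71), and both fell without tumor 1 (−1.86, SE 0.57, adjusted p = 0.055, and −1.71, SE 0.49, adjusted p = 0.045). Ccl9 and Ccl24 were the other members of the chemokine list called there. Ccl5, a T cell attractant, was at 6.75, 12.4, 12.4 and 7.39 CPM against 7.34, 2.31, 2.62 and 4.84 CPM (−1.19, SE 0.39, adjusted p = 0.30, and −1.60, SE 0.33, adjusted p = 0.018 without tumor 1). Foxp3, the defining factor of regulatory T cells, was at 1.87, 2.78, 2.85 and 2.19 CPM against 1.95, 0.265, 0.769 and 1.34 CPM (−1.16, SE 0.48, adjusted p = 0.38, and −1.62, SE 0.43, adjusted p = 0.036). For Ccl8, Ccl6, Ccl5 and Foxp3 tumor 1 was the highest large tumor, so their p-values without it are no separate support. Muscle and fat RNA moved with these genes in tumor 1. A fit of all 8 tumors took a muscle score, the mean log level of the muscle genes, as covariate. The log2 fold changes of that fit were −0.17 for Csf1r, −0.39 for Folr2, −0.44 for Cd163, −0.82 for Ccl8 and −0.37 for Ccl6. For Ccl5 and Foxp3 they were −0.89 and −0.85. The edgeR adjusted p of these genes there were 0.40 to 0.88. Which trait of tumor 1 had a part in these levels was not tested.

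Mast cell genes were low in all 8 tumors, and the summed level of 3 defining members overlapped, at 9.63, 7.34, 10.9 and 8.01 CPM in the small tumors and 4.92, 9.36, 6.12 and 7.44 CPM in the large ones. Cma1, a chymase of mast cell granules, was at 2.07, 1.73, 2.51 and 1.86 CPM against 0.707, 1.52, 0.585 and 0.397 CPM with no overlap (log2 fold change −1.36, SE 0.37, edgeR adjusted p = 0.26). Hdc, the enzyme that makes histamine, was at 1.78, 2.2, 4.34 and 2.93 CPM against 1.89, 0.834, 0.646 and 0.939 CPM (−1.38, SE 0.40, adjusted p = 0.27). Cpa3, a granule carboxypeptidase, lay at 1.37 to 3.15 CPM against 0.434 to 1.67 CPM. Of 6 mast cell genes tested, 3 were lower at an unadjusted p under 0.05, beside 5.38% of all genes, and none higher (median −1.12), and DESeq2 called Cma1 and Hdc.

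**Figure D4:**
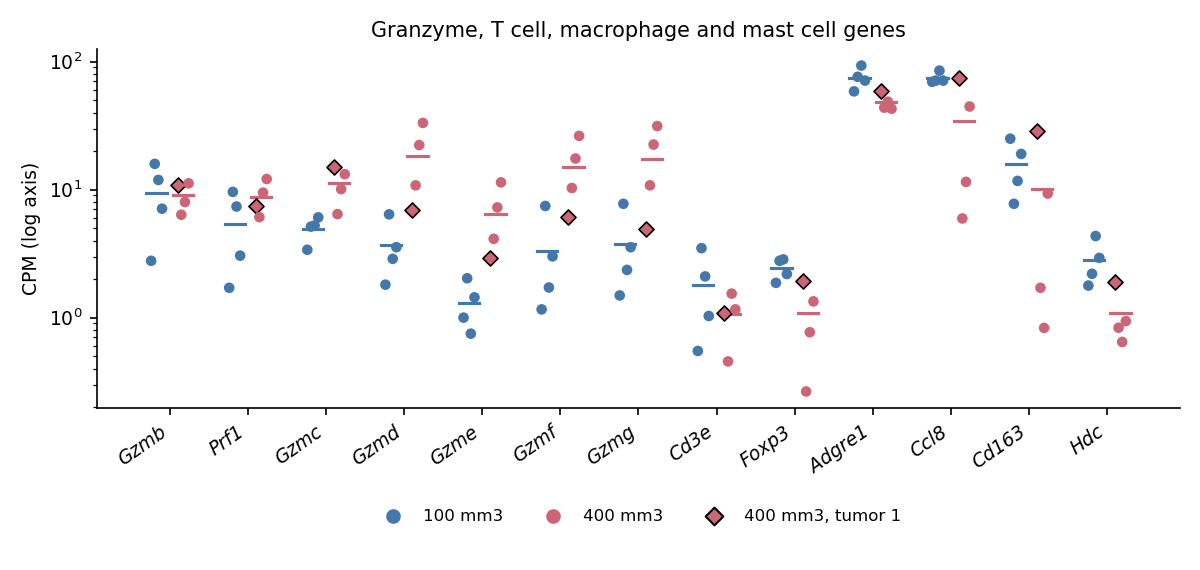
CPM (log axis) of granzyme, T cell, macrophage, chemokine and mast cell genes in the 100 mm3 and 400 mm3 tumors, with a line at each group's mean and a diamond for 400 mm3 tumor 1. Gzmd lies at 1.81 to 6.41 CPM in small and 6.94 to 33.2 CPM in large tumors, Gzmb overlaps, and for Ccl8 and Cd163 the diamond lies with the small tumors.

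Antigen presentation and interferon genes differed more within a size than between sizes. The summed level of 10 MHC class II genes was 600, 2449, 2308 and 1194 CPM in the small tumors and 1523, 580, 1397 and 915 CPM in the large ones. For the 38 interferon-stimulated genes it was 603, 2199, 2050 and 933 CPM against 1554, 943, 1132 and 1129 CPM. No gene of these lists, nor of the MHC class I list, passed an unadjusted p of 0.05 in the 8 tumors, with medians of −0.53, −0.27 and −0.15. The chemokine Cxcl10, which is induced by interferon gamma and draws T cells, lay at 8.43 to 29.7 CPM against 15.6 to 37 CPM, and Cxcl11 at 1.94 to 11.7 CPM against 2.77 to 8.69 CPM. Xcr1, the receptor of cross-presenting dendritic cells, lay at 0.194 to 1.87 CPM against 0.227 to 1.25 CPM, and the chemokine gene Ccl4 at 2.49 to 7.86 CPM against 4.06 to 6.23 CPM. In all 4 the groups overlapped, and 100 mm3 tumor 1 was the lowest of the 8 in each of them.

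In the fibroblast, endothelial, collagen and matrix protease lists, members went both ways at an unadjusted p under 0.05. In the cell cycle and cholesterol synthesis lists, those under that p were all lower. Medians of the 8-tumor fit were −0.33 for 19 fibroblast genes, −0.13 for 26 endothelial genes, −0.02 for 29 collagen genes, 0.01 for 21 matrix protease genes and −0.04 for 31 cell cycle genes, beside 0.01 for all genes. At an unadjusted p under 0.05, 1 fibroblast gene was higher and 4 lower, and 3 matrix protease genes were higher and 4 lower, beside 7.28% and 5.38% of all genes. The collagen list had 1 higher and 2 lower, the endothelial list 1 higher and 3 lower, and the cell cycle list 0 higher and 2 lower. Of 22 cholesterol synthesis genes, 5 were lower and none higher (median −0.16). Without 400 mm3 tumor 1, 1 fibroblast gene passed the adjusted p as higher and 5 as lower, and for matrix proteases 6 and 5, beside 13.9% and 14.7% of all genes. In that fit the counts were 3 and 3 for endothelial and 2 and 6 for collagen genes. They were 0 and 7 of 31 for cell cycle genes and 0 and 9 of 22 for cholesterol synthesis genes. None of the 33 lists other than the clock and glucocorticoid lists had a member called by edgeR in the 8 tumors. DESeq2 called members of 3 of them, the cytotoxic list (5 higher and 1 lower), the mast cell list (2 lower) and the neutrophil and inflammatory myeloid list (1 lower). DESeq2 gave a p-value for only 2 of the 32 muscle genes, so that list was hardly tested by it.

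The inhibitor of metalloproteases Timp3 was at 592, 455, 393 and 403 CPM in the small tumors and at 172, 1000, 792 and 722 CPM in the large ones. Its level in 400 mm3 tumor 1 was the lowest of the 8, and the 3 other large tumors were the highest (log2 fold change 0.53, SE 0.43, edgeR adjusted p = 0.61, and 0.85, SE 0.16, adjusted p = 0.014 without tumor 1). The kinase-like gene Trib2, at 42.6 to 48.5 CPM against 41.5, 109, 86.2 and 88.5 CPM, the stress gene Gadd45a, at 10.1 to 12.4 CPM against 9.97, 23.3, 22.6 and 28.1 CPM, and the integrin gene Itgb8, at 4.27 to 6.79 CPM against 4.81, 17.2, 13.3 and 11 CPM, also had their highest levels in large tumors 2, 3 and 4. Tumor 1 was the lowest of the 8 for Trib2 and Gadd45a and within the range of the small tumors for Itgb8. With all 8 tumors none of the 3 passed in edgeR, at log2 fold changes of 0.84, 0.90 and 1.11 (edgeR adjusted p = 0.27, 0.28 and 0.28). In DESeq2 with all 8 tumors the 3 passed (adjusted p = 0.026, 0.042 and 0.043), and Itgb8 was called. All 3 rose without tumor 1, at log2 fold changes of 1.05 (SE 0.09, adjusted p = 0.003), 1.12 (SE 0.11, adjusted p = 0.0047) and 1.35 (SE 0.19, adjusted p = 0.0082). These 3 genes were picked from those called without tumor 1, and Timp3 set tumor 1 apart, so the p-values of that fit are no separate support.

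Of 34 genes of low oxygen and glycolysis tested, 2 were higher and none lower at an unadjusted p under 0.05 (median 0.15), beside 7.28% and 5.38% of all genes. Without 400 mm3 tumor 1, 8 passed the adjusted p as higher and 1 as lower (median 0.20), beside 13.9% and 14.7% of all genes. Vegfa, the vascular growth factor, was at 141, 177, 175 and 172 CPM in the small tumors and at 130, 295, 258 and 232 CPM in the large ones (log2 fold change 0.46, SE 0.22, edgeR adjusted p = 0.42, and 0.64, SE 0.10, adjusted p = 0.009 without tumor 1). The glucose transporter gene Slc2a1 lay at 226 to 340 CPM against 265 to 514 CPM (0.38, SE 0.21, adjusted p = 0.46), and Car9, a carbonic anhydrase induced by hypoxia, at 88.7 to 130 CPM against 106 to 205 CPM (0.28, SE 0.21, adjusted p = 0.58). Both overlapped between the sizes.

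Of the secreted Wnt ligands the study names, Wnt10b was at 105, 101, 97 and 109 CPM in the small tumors and 101, 147, 171 and 144 CPM in the large ones (log2 fold change 0.45, SE 0.14, edgeR adjusted p = 0.28, and 0.57, SE 0.07, adjusted p = 0.0058 without tumor 1). Wnt10a lay at 136 to 173 CPM against 120 to 145 CPM (−0.19, SE 0.09, adjusted p = 0.41), and Wnt6 at 7.23 to 13.8 CPM against 10.4 to 11.2 CPM. Wnt5a lay at 15.8 to 20.5 CPM against 15.9 to 27.8 CPM, and Wnt5b at 1.1 to 1.77 CPM against 0.554 to 2.76 CPM. None of these passed in edgeR with all 8 tumors, while in DESeq2 Wnt10b alone passed the adjusted p (0.079), below the 2-fold limit. Lif, a cytokine linked to the wasting that Colon 26 tumors cause, lay at 27.7 to 29.5 CPM against 26.3 to 43.3 CPM (0.20, SE 0.15, adjusted p = 0.58) and at 44.5 to 57.1 CPM in the 800 mm3 tumors.

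To ask what was particular to Colon 26, the change with size was tested against that of CT-26 tumors in a fit of 16 tumors. Muscle RNA also varied among the CT-26 tumors, with sums of 155 to 1169 CPM at 100 mm3 and 109 to 708 CPM at 400 mm3. No gene of 16077 was called in the difference by edgeR, where 1254 (7.8%) had an unadjusted p under 0.05, and DESeq2 called 33. Without CT-26 400 mm3 tumor 4, edgeR called 29. Per1 fell in CT-26 as well (log2 fold change −1.12, edgeR adjusted p = 0.026), and the difference from Colon 26 was −0.74 (adjusted p = 0.61). Spsb1 also fell there (−0.63, edgeR adjusted p = 0.035), with a difference of −0.56 (adjusted p = 0.58). In CT-26, Tsc22d3 fell by 1.54, Sgk1 by 1.07, Tent5b by 1.69 and Ccn2 by 2.06 on the log2 scale (adjusted p = 0.026, 0.045, 0.025 and 0.015). For Dbp the log2 fold change was −0.34 in CT-26 (adjusted p = 0.54), with a difference of −1.44 (unadjusted p = 0.0075, adjusted p = 0.50). The clock list had a median of 0.24 in CT-26, with 6 of 18 genes higher and 3 lower at an unadjusted p under 0.05. Over all 16077 genes 2127 were higher and 2268 lower at that p. The median difference of the clock list was −0.55. There, 7 of 18 were lower at that p, beside 7.8% of all genes in either direction, and 0 at the adjusted p. Neutrophil and inflammatory myeloid genes had a median log2 fold change of −0.23 in the 8 Colon 26 tumors (16 genes) and 1.61 in CT-26, and the median difference was −1.86. For Cxcl5, a neutrophil attractant in that list, the difference was −3.50 (unadjusted p = 0.0025, adjusted p = 0.38), with 0.227 to 1.85 CPM in the 400 mm3 Colon 26 tumors and 2.48 to 16.6 CPM in those of CT-26. No model difference was shown for any of these genes at the adjusted p.

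From 400 to 800 mm3, a comparison that shares the 400 mm3 tumors, edgeR called none of 15202 genes, 856 (5.63%) had an unadjusted p under 0.05, and DESeq2 called 19. Side by side, the mean levels at 100, 400 and 800 mm3 were 176, 49.1 and 62.6 CPM for Per1, 54.2, 24 and 28 CPM for Spsb1, 43.3, 12.8 and 12.3 CPM for Dbp and 262, 94.2 and 85.4 CPM for Sgk1. For these 4 genes the 800 mm3 mean lay nearer to the 400 mm3 than to the 100 mm3 mean. For Arntl the means were 21.2, 44.4 and 32.5 CPM, and for Gzmd 3.66, 18.3 and 18 CPM.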

How the data were processed

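Poly(A) RNA of 30 libraries was sequenced, and the authors quantified it with Array Studio against Ensembl release 78 genes. The aligner, the genome build and the strand setting are not given in the sources used here. The authors deposited estimated counts per gene (22.6% of nonzero values not whole) and FPKM values, with runs of a library combined and replicates kept apart. The submitters' processing notes name DESeq2 1.24.0. Symbols for 97.7% of 53431 gene identifiers and gene coordinates were matched in GENCODE M21 (GRCm38).

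Because the planned test had assumed whole counts, values were rounded first. Genes were filtered with filterByExpr, scaled with TMM and tested with the quasi-likelihood test of edgeR 4.0.16 in R 4.3.3, 400 over 100 mm3, on the 8 tumors alone, with Benjamini-Hochberg adjustment. A gene was called at an adjusted p of at most 0.1 and a log2 fold change of at least 1 in size, the limits of the study. Each CPM value is the rounded count per 1000000 of its library's total times its TMM factor, with the factors fitted over all 30 libraries. The model difference was the interaction term of a fit of 16 tumors, and 800 over 400 mm3 was fitted on those 8 tumors. The same code was tested on simulated data. Alternatives were DESeq2 1.42.0, other scalings, filters, thresholds and sets of tumors in the fit, limma 3.58.1 on log2(FPKM + 1) and log2(FPKM + 0.1), a muscle score as covariate, and leaving out each tumor. Leaving out both muscle-rich tumors, and DESeq2 without 400 mm3 tumor 1, were added after seeing the data. An adjusted p that DESeq2 gave as NA was kept as NA. Fold changes come from edgeR unless another tool is named.

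The members, gene lists and tests were chosen with earlier results of these data known. Genes to be named were up to 15 called genes per direction with at least 2 CPM and no overlap, the defining, called and 4 smallest-p members of each list, and genes the study names. The clock and glucocorticoid lists and the genes outside this rule were chosen after their values were seen. Replicates were compared by a chi-square statistic per gene, and no pair of libraries was alike enough to be 1 library deposited more than once. Depth limits genes under about 1 CPM, where a level rests on few counts, and intervals between libraries cover the spread of these libraries only.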

Additional observations from a re-analysis of the deposited data

Results flagged for a closer look

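In 246 sets of 4 tumors (a named gene or a gene list within 1 size), the highest or lowest tumor was compared with the rest, by its gap to the nearest other tumor as a share of the range of all 4. The gap exceeded Dixon's 95% critical value for 4 values in 29 sets, 15 of them through 400 mm3 tumor 1. Chance flags about 1 in 20 such sets, and genes of 1 list share their tumors.

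Muscle genes and the muscle list were flagged at both sizes. In the 400 mm3 tumors, tumor 1 was the highest, with gap shares of 0.997 for Acta1, 1 for Ckm, 0.993 for Mylpf, 0.998 for Tnnt3, 1 for Myh4, 0.996 for Myh1, 0.997 for Myh2 and 0.995 for the summed muscle list. In the 100 mm3 tumors, tumor 2 was the highest, with 0.917 for Acta1, 0.893 for Ckm, 0.86 for Mylpf, 0.874 for Tnnt3, 0.876 for Myh4 and 0.891 for the muscle list. Fat genes were highest in 400 mm3 tumor 1 too, with 0.89 for Adipoq, 0.947 for Cidec, 0.956 for Cfd, 0.994 for Car3 and 0.898 for the adipocyte list. The fat droplet gene Plin1 had its gap in 100 mm3 tumor 4 (0.912).

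The same tumor, 400 mm3 tumor 1, was the lowest for the fibroblast list (0.86) and for 3110039I08Rik (0.843). In 100 mm3 tumor 1, Dbp (0.834) and the Schwann and nerve list (0.906) were the highest of their group and Vegfa (0.853) the lowest. In 100 mm3 tumor 2, the cholesterol synthesis list (0.835) and the epithelial and mesenchymal list (0.843) were the lowest. Ccl8 was highest in 100 mm3 tumor 3 (0.899), and Car9 in 400 mm3 tumor 2 (0.845).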

How the results depend on the processing

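The count of 2 called genes (0 higher, 2 lower) stayed at 2 under RLE scaling, library size alone, both limma fits and an adjusted p of 0.05. It was 6 (6 lower) without a filter on low counts, 5 (5 lower) with at least 10 counts in every library, 13 (13 lower) with all 12 Colon 26 tumors in the fit, 13 (1 higher, 12 lower) with all 24 tumors, 6 (2 higher, 4 lower) with the muscle score as covariate and 42 (12 higher, 30 lower) by DESeq2. With no minimum fold change 1 gene was higher. Leaving out each tumor gave 0 to 391 called genes, 0 to 36 higher and 0 to 355 lower, and 391, 36 and 355 are those without 400 mm3 tumor 1. DESeq2 without that tumor called 378 (31 higher, 347 lower), and without both muscle-rich tumors edgeR called 306 (35 higher, 271 lower). The model difference had 0 called genes, 33 by DESeq2 and 0 to 29 with each tumor left out, 29 being without CT-26 400 mm3 tumor 4. The comparison of 800 with 400 mm3 had 0, and 19 by DESeq2. Except where fewer samples entered, the cause was not tested.

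Of 1427 fold changes of named genes under an alternative, 1235 kept direction and side of the threshold, 133 newly passed, 9 no longer passed and 50 turned. The muscle genes turned from higher to lower. The muscle score is built from these same genes, so their values with the covariate are set in part by the score itself. In the order DESeq2 without 400 mm3 tumor 1, limma with 0.1, limma with 1, muscle covariate, edgeR without 400 mm3 tumor 1 and edgeR without both muscle-rich tumors, the log2 fold changes were −6.39, −3.80, −3.04, −0.35, −6.35 and −5.21 for Acta1 (0.67 as reported), −8.55, −4.26, −2.58, −1.0, −8.57 and −6.96 for Ckm (0.32), −4.86, −2.66, −2.18, −0.07, −4.85 and −3.93 for Mylpf (0.31), −7.13, −3.95, −2.80, −0.62, −7.08 and −5.83 for Tnnt3 (0.41), and −9.09, −4.19, −2.18, −1.22, −9.12 and −7.62 for Myh4 (0.31). With each tumor left out they ranged from −6.35 to 1.80 for Acta1, −8.57 to 1.91 for Ckm, −4.85 to 1.22 for Mylpf, −7.08 to 1.64 for Tnnt3 and −9.12 to 1.79 for Myh4. With the covariate Timp3 was at −0.48 (0.53 as reported), Wnt5b at 0.36 (−0.02), Cxcl11 at 0.08 (−0.16) and Xcr1 at 0.02 (−0.53). Cxcl11 was at 0.04 in limma with 0.1, and Cxcl10 at −0.10 (0.19) in DESeq2 without 400 mm3 tumor 1. With each tumor left out, Wnt5b ranged from −0.60 to 0.25, Cxcl10 from −0.11 to 0.40, Cxcl11 from −0.48 to 0.26, Xcr1 from −1.08 to 0.09 and Ccl4 from −0.42 to 0.05 (−0.17).

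No paired analysis was possible because the labels carry no replicate numbers. With 4 tumors a size, 1 tumor decided most calls, and the hour of harvest, mouse and antibody of each tumor are not given in the labels.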
